A study of Mus musculus with 16 samples.

Results

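TRAV9-4, TRAV9-1, TRAV9-2, TRAV9D-1, TRAV9D-2 and TRAV9N-2 are 6 of the 117 Vα gene segments named in these TCRα repertoires, and they were followed here as TRAV9-4 on its own and as the TRAV9 segments 1 and 2. A row of a repertoire table is 1 CDR3 nucleotide sequence with its read count, and a row belonged to these segments if its best V alignment named one of them. They took 1424 of 83992 rows and 37046 of 971532 reads, with 1352 distinct CDR3 nucleotide sequences. The rows were chosen by their best V alignment, and the 6 segments were put together with earlier results of these same libraries known, so the shares of sorted against all CD8 cells are given as a description with no test.

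The repertoires came from C57BL/6 mice, all carrying the Foxp3-GFP reporter, that were Themis+/+ or germline Themis-/-; mouse ages were not stated. Themis is a T-lineage protein that tunes TCR signalling during thymic selection. In each genotype, CD8 T cells of pooled peripheral lymph nodes (LN) and CD8 single positive thymocytes were sequenced, either as all CD8 cells or after a sort with an antibody to Vα3.2, a chain encoded by TRAV9N-3. Each of the 8 groups held 2 libraries, and the p-values below measure the spread between these libraries. The paper describes pooling lymph nodes of several mice per genotype before sorting, and does not give the number of mice per library. The spread can therefore not be read as that between individual mice. Only TCRα rows were held, so no marker of another cell type could be read.

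A TCRα chain is made by joining 1 Vα segment to 1 Jα segment, and the join lies in CDR3, the loop that faces the peptide. The mouse Vα locus carries repeated blocks, so a segment such as TRAV9-2 has D and N copies (TRAV9D-2, TRAV9N-2) farther from the Jα segments. Jα segments are numbered so that high numbers lie near the Vα segments and low numbers near the constant region. Developing thymocytes can rearrange the same locus repeatedly, first joining near Vα to high-numbered Jα segments and later using more distant ones.

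In the GRCm38 annotation all 6 segments lie on the plus strand of chromosome 14, each with 2 exons, in the order TRAV9D-1 (chr14:52792316-52792777), TRAV9D-2 (chr14:52892186-52892618), TRAV9N-2 (chr14:53203122-53203554), TRAV9-1 (chr14:53488045-53488567), TRAV9-2 (chr14:53590857-53591514) and TRAV9-4 (chr14:53676141-53676630). TRAV9-4 is the nearest of them to the Jα segments. The Vα3.2 segment TRAV9N-3 (chr14:53231433-53232102) and its copy TRAV9D-3 (chr14:52920443-52921112) lie among the more distant ones. Over the coding sequence TRAV9-4 matched TRAV9N-3 at 330 of 340 bases (97.1%), TRAV9D-2 and TRAV9N-2 at 333 (97.9%), TRAV9-2 at 331 (97.4%) and TRAV9-1 at 276 (81.2%). TRAV9-1 is therefore the distant relative, while TRAV9-4 is nearly as close to the Vα3.2 segments as to the segments numbered 2. The germline bases that open CDR3 are shown because they bear on both the V call and the CDR3 residues. Capitals mark base 13, the first base of the fifth CDR3 codon.
TRAV9-4, TRAV9-1 and TRAV9D-1: tgtgctgtgagcG
TRAV9-2: tgtgttttgagcG
TRAV9D-2 and TRAV9N-2: tgtgttctgagcG
TRAV9N-3 and TRAV9D-3: tgtgctgtgagcA
TRAV9N-4 and TRAV9D-4: tgtgctctgagcA
All 6 segments followed here carry G at that base, and the Vα3.2 segments carry A.

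The V calls were checked against these starts. Of 641 TRAV9-4 rows, 604 (94.2%) opened with the TRAV9-4 bases 1 to 9, and so did 265 of 290 TRAV9-2 rows (91.4%), 132 of 138 TRAV9-1 rows and 62 of 69 TRAV9D-1 rows with their own. Since TRAV9-4, TRAV9-1 and TRAV9N-3 share these bases, the check does not separate those 3 from each other. The V alignment also reads these bases, so the check is not independent of the call. TRAV9D-2 was different. Only 79 of its 279 rows (28.3%) opened with its own start, while 118 (42.3%) opened with that of TRAV9-2 and 54 (19.4%) with the start that TRAV9-4 shares with TRAV9N-3, so values of TRAV9D-2 are uncertain in their assignment. TRAV9N-2 held 7 sequences and 56 reads in all, too few to describe further than its shares and fold changes. In the annotation its coding sequence is identical to that of TRAV9D-2 at all 340 bases. The split of reads between these 2 calls is therefore uncertain, and its low shares cannot be read as low use of the segment. It took at most 0.0198% of reads in a library of all CD8 cells and had reads in 1 sorted library, at 0.0436%. Tied best hits were found in 11 rows of the 6 segments (0.772%), against 42.5% of TRAV9N-3 and TRAV9D-3 rows. Median V alignment scores by library were 1089 to 1155 for TRAV9-4 in all CD8 cells and 1399 to 1406 in sorted cells. For segments 1 and 2 they were 1006 to 1124 and 1347 to 1351, and for TRAV9N-3 with TRAV9D-3 1084 to 1147 and 1393 to 1396. Over all rows of all CD8 cells they were 1386 to 1396. Whether the lower scores bear on comparisons of sorted with all CD8 cells was not tested.

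The 8 libraries of all CD8 cells held 57455 to 146191 reads and the 8 sorted libraries 10338 to 25247. The sort left 0.122% to 1.17% of reads outside the TRAV9 family, against 95.3% to 98.0% in all CD8 cells. The sorted libraries stood apart by number. In those numbered 1, TRAV9N-3 and TRAV9D-3 took 83.1% to 89.3% of reads, and in those numbered 2 they took 41.2% to 67.3%. The sorted thymus libraries numbered 1 held 84 and 86 sequences in all. Values from sorted cells are therefore given for each number. Reads were not counted by molecular identifiers, so intervals and floors cover counting error only, and a library with more cells of a segment cannot be told apart from one with more RNA per cell.

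TRAV9-4 came next after TRAV9N-3 with TRAV9D-3 in the sorted libraries numbered 2 and was a minor segment in those numbered 1. In the libraries numbered 2 it took 19.9% of reads in Themis+/+ LN, 33.7% in Themis-/- LN, 28.9% in Themis+/+ thymus and 38.7% in Themis-/- thymus, in 45, 87, 43 and 104 sequences. In those numbered 1 it took 1.13%, 1.56%, 6.04% and 0% in the same order, in 8, 9, 1 and 0 sequences. The 6.04% of Themis+/+ thymus was a single sequence of 705 reads, and the 0 of 10338 reads in Themis-/- thymus allows a share of up to 0.0290%. The libraries numbered 2 all lay above those numbered 1, whichever the genotype or tissue. This order was read after the values were seen, and how many of all segments share it was not counted.

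In all CD8 cells TRAV9-4 took 0.150% to 0.507% of reads, in 17 to 86 sequences. Its shares were 0.465% and 0.186% in Themis+/+ LN, 0.507% and 0.376% in Themis-/- LN, 0.259% and 0.400% in Themis+/+ thymus and 0.321% and 0.150% in Themis-/- thymus. The groups overlapped in both tissues. One sequence of 203 reads made 43.3% of the TRAV9-4 reads of the first Themis-/- thymus library, so these shares rest in part on single clones. TRAV9N-3 and TRAV9D-3 together took 0.610% to 3.22% of the same libraries.

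**Figure D1:**
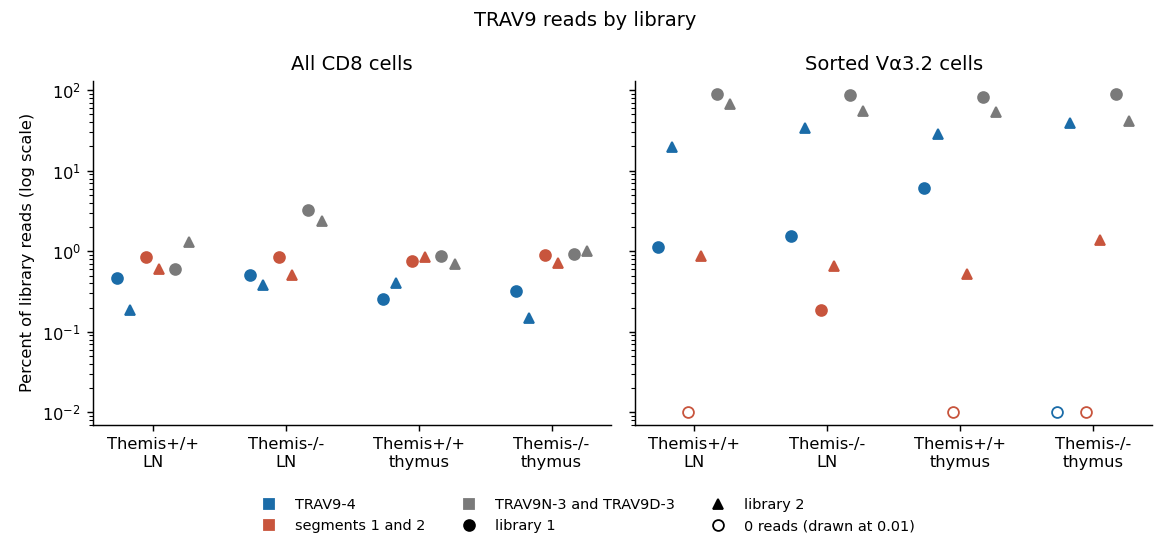
Percent of library reads (log scale) with TRAV9-4 (blue), TRAV9 segments 1 and 2 pooled (red) and TRAV9N-3 with TRAV9D-3 (grey), for all CD8 cells at left and sorted Vα3.2 cells at right. Each point is 1 library, circles are numbered 1 and triangles 2, and open points at 0.01 stand for 0 reads. TRAV9-4 sits at 0.150% to 0.507% in all CD8 cells and at 19.9% to 38.7% in the sorted libraries numbered 2.

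The shares of sorted and all CD8 cells were set side by side as the mean difference of log2(percent + 0.001) within the 4 combinations of genotype and tissue. Over all 114 segments an exact two-sided permutation test with Benjamini-Hochberg adjustment called 2.63% higher in sorted cells, namely TRAV9N-3, TRAV9N-4 and TRAV9D-3, and 93.9% lower. The sort selected the chain of TRAV9N-3, so its rise and the fall of most other shares were set by the design. These percentages are background only, and the 6 segments are among the 114. For the 6 segments the differences are a description with no test, since shares of these libraries were known when they were chosen. The mean share of TRAV9-4 was 16.2% in sorted and 0.333% in all CD8 libraries, and 7 of 8 sorted libraries lay above every library of all CD8 cells. The difference was 3.31 on this log2 scale. Without the Themis-/- thymus library with 0 reads it was 5.22. In the sorted libraries numbered 1 alone it was 0.05 and in those numbered 2 alone 6.57, a split made after the values were seen.

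The segments numbered 1 were nearly absent from sorted cells. TRAV9-1 had at most 2 reads in any sorted library and TRAV9D-1 had 0 in all 8, where 0 reads allow up to 0.0119% to 0.0290%. Their differences were -5.17 and -5.28 on the same log2 scale. TRAV9D-2 differed by -5.63, and its only sorted reads were in 3 Themis-/- libraries, at 0.0634%, 0.122% and 0.301%. These were 16, 27 and 69 reads in 2, 2 and 4 sequences. TRAV9N-2 differed by -1.13.

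TRAV9-2 differed between the numbers, as TRAV9-4 did. In sorted libraries numbered 2 it took 0.876% in Themis+/+ LN, 0.522% in Themis-/- LN, 0.511% in Themis+/+ thymus and 1.09% in Themis-/- thymus. In those numbered 1 it had 0 reads in 3 and 0.0753% in the Themis-/- LN library. All 4 libraries numbered 2 lay above all 8 libraries of all CD8 cells, whose shares were 0.132% to 0.430%, and all 4 numbered 1 lay below them. This split was made after the values were seen, and how many of all segments separate in this way was not counted. Over both numbers the difference was -2.14.

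The genotypes were then compared in all CD8 cells, with edgeR's quasi-likelihood test on reads per segment and Benjamini-Hochberg adjustment over 114 segments. None of the 6 segments passed in LN, where 1.75% of all segments did, nor in thymus, where 0% did. The thymus count of 0 stood beside 8 segments at an unadjusted p under 0.05, and DESeq2 also called 0 there. TRAV9-4 differed by a log2 fold change of 0.44 (SE 0.67, edgeR adjusted p = 0.749) in LN and -0.36 (SE 0.67, edgeR adjusted p = 0.934) in thymus, Themis-/- over Themis+/+. On counts simulated for the LN comparison 0 of 20 changed segments were called at a log2 change of 1 and 12 at a change of 2, so differences of the size seen for TRAV9-4 were not detectable here.

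TRAV9D-1 had the largest fold changes of the 6 that had reads in most libraries. Over the coding sequence it matches TRAV9-1 at 335 of 337 bases, and TRAV9-1 was the second hit in 46 of its 69 rows. With these 2 segments counted together the log2 fold changes were 0.41 in LN and 1.83 in thymus. Whether calls moved between them was not tested. Shares of TRAV9D-1 were 0.0398% and 0% in Themis+/+ LN, 0.361% and 0.0458% in Themis-/- LN, 0.0168% and 0.0183% in Themis+/+ thymus and 0.109% and 0.195% in Themis-/- thymus. Both Themis-/- libraries lay above both Themis+/+ libraries in LN, as for 19.3% of all segments, and in thymus, as for 21.9%. The log2 fold changes were 3.32 (SE 1.26, edgeR adjusted p = 0.137) in LN and 3.17 (SE 1.25, edgeR adjusted p = 0.411) in thymus. Single clones weighed on both, since 1 sequence made 169 of the 241 reads (70.1%) of the first Themis-/- LN library and 1 made 66.4% of those of the second Themis-/- thymus library. Without that LN library the LN value was 1.13 (edgeR adjusted p = 0.685). Without the first Themis+/+ LN library the LN value passed the test at 10.80 (edgeR adjusted p = 0.0096), against a lone library at 0 reads, and without the second Themis-/- LN library it passed at 4.27 (edgeR adjusted p = 0.00418).

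TRAV9-2 lay the other way. It took 0.430% and 0.153% in Themis+/+ LN against 0.148% and 0.132% in Themis-/- LN, and 0.429% and 0.236% in Themis+/+ thymus against 0.154% and 0.133% in Themis-/- thymus. Both Themis-/- libraries lay below both Themis+/+ libraries in LN, as for 25.4% of segments, and in thymus, as for 23.7%. The log2 fold changes were -1.05 (SE 0.77, edgeR adjusted p = 0.499) and -1.11 (SE 0.77, edgeR adjusted p = 0.794).

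TRAV9-1 and TRAV9D-2 gave no like pattern in both tissues. TRAV9-1 took 0.0590% and 0.280% in Themis+/+ LN, 0.0435% and 0.0631% in Themis-/- LN, 0.0400% and 0.0772% in Themis+/+ thymus and 0.118% and 0.0890% in Themis-/- thymus. Its groups overlapped in LN, where 1 sequence made 143 of the 161 reads of the highest library. In thymus both Themis-/- libraries lay above both Themis+/+ libraries, as for 21.9% of all segments. The log2 fold changes of TRAV9-1 were -1.74 (SE 1.10, edgeR adjusted p = 0.464) in LN and 0.92 (SE 1.07, edgeR adjusted p = 0.838) in thymus. TRAV9D-2 took 0.327% and 0.174% in Themis+/+ LN, 0.298% and 0.254% in Themis-/- LN, 0.265% and 0.517% in Themis+/+ thymus and 0.516% and 0.284% in Themis-/- thymus, with overlap in both tissues. Its log2 fold changes were 0.13 (SE 0.67, edgeR adjusted p = 0.918) in LN and 0.14 (SE 0.66, edgeR adjusted p = 0.946) in thymus. Those of TRAV9N-2, with 45 reads in all CD8 cells, were 2.70 (SE 3.64) in LN and 0.04 (SE 3.27) in thymus. With D and N copies counted together, the segments numbered 1 differed by 0.41 in LN and 1.83 in thymus (edgeR adjusted p = 0.495) and those numbered 2 by -0.33 and -0.29.

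**Figure D2:**
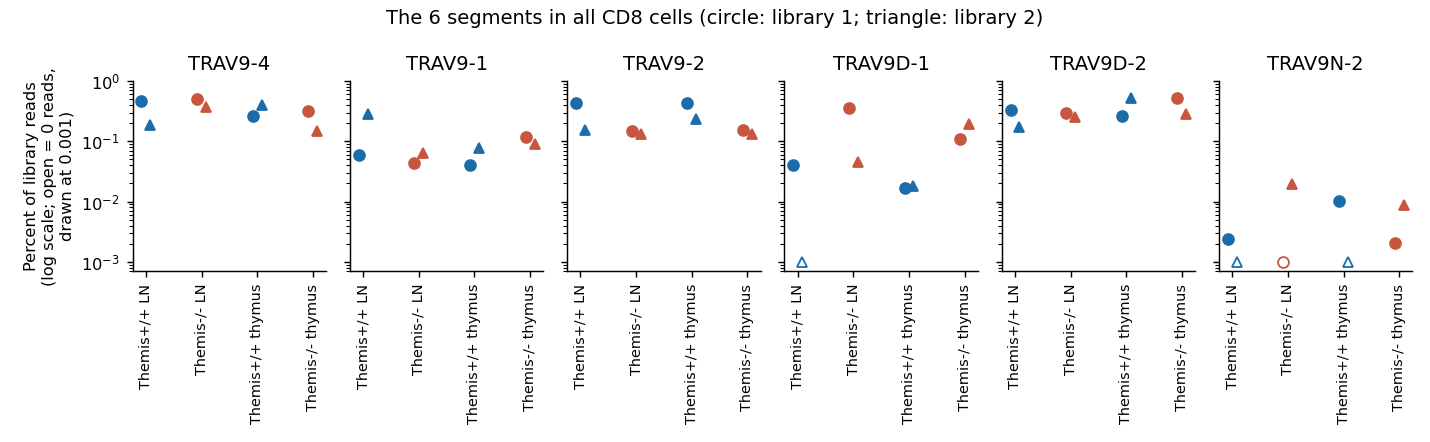
Percent of library reads (log scale) of each of the 6 segments in the 8 libraries of all CD8 cells, by genotype and tissue. Each point is 1 library (Themis+/+ blue, Themis-/- red) and open points at 0.001 stand for 0 reads. TRAV9D-1 lies higher and TRAV9-2 lower in Themis-/- libraries of both tissues, and neither passed the test.

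LN and thymus were compared in the same fit. None of the 6 passed in Themis+/+ mice, where 0% of segments did (0 at an unadjusted p under 0.05, and 0 by DESeq2), or in Themis-/- mice, where 2.63% did. TRAV9-4 differed by 0.10 (SE 0.67) in Themis+/+ and 0.91 (SE 0.67, edgeR adjusted p = 0.567) in Themis-/- mice, LN over thymus. Counting distinct CDR3 sequences in place of reads, the Themis-/- value passed the test at 1.60 (edgeR adjusted p = 0.0153). The genotype difference was not shown to differ between tissues for any of the 6, where 0.877% of segments passed. In the sorted libraries, where 0% of the 8 segments that could be fitted passed in any of the 5 comparisons (0 at an unadjusted p under 0.05 and 0 by DESeq2), TRAV9-4 differed between genotypes by 0.75 (SE 3.11) in LN and 0.15 (SE 3.10) in thymus. TRAV9-2 differed there by -0.55 (SE 4.03) in LN and 1.08 (SE 4.06) in thymus. TRAV9D-2, with 0 reads in Themis+/+ sorted libraries, differed by 7.19 (SE 3.64, edgeR adjusted p = 0.927) and 7.88 (SE 3.97, edgeR adjusted p = 0.964). On counts simulated for the LN comparison of sorted cells the fit called 0 of 2 changed segments even at a log2 change of 4. At that change it called 1 unchanged segment. Over the 8 libraries of all CD8 cells, the segments whose log2 CPM ran most like that of TRAV9-4 were TRAV13D-1 (Pearson r = 0.86), TRAV15D-1-DV6D-1 (0.81) and TRAV16N (0.79), of 113 compared.

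The J partners set TRAV9-4 apart from the other TRAV9 segments. Among distinct CDR3s of all CD8 cells, 176 of 344 TRAV9-4 sequences (51.2%) were joined to TRAJ37 or a higher number, against 29.8% of 735 for segments 1 and 2 and 11.5% of 1074 for TRAV9N-3 and TRAV9D-3. By library the TRAV9-4 share was 57.0% and 47.1% in Themis+/+ LN, 31.3% and 52.8% in Themis-/- LN, 48.2% and 46.4% in Themis+/+ thymus and 56.7% and 64.5% in Themis-/- thymus. In the 6 sorted libraries with at least 5 TRAV9-4 sequences it was 22.2% to 62.5%, and the lowest and highest of these were the 2 libraries with 9 and 8 sequences.

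Compared within libraries, TRAV9-4 lay 35.4 percentage points above TRAV9N-3 and TRAV9D-3 (46.6% against 11.2%), higher in 14 of 14 libraries. The exact sign-flip permutation gave its smallest possible p, 0.000122, and an adjusted p of 0.00439 over the 36 CDR3 tests made, of which 13.9% passed. Against segments 1 and 2 it lay 19.6 points higher (45.4% against 25.8%), in 12 of 13 libraries (exact adjusted p = 0.00586). Weighted by reads, the difference to segments 1 and 2 did not pass. In all CD8 cells TRAV9-1 stood at 24.4%, TRAV9-2 at 33.1%, the distant TRAV9D-1 at 33.3%, TRAV9D-2 at 29.2% and TRAV9N-4 with TRAV9D-4 at 10.2%. Within libraries TRAV9-1 with TRAV9-2 and their D and N copies differed by -0.05 points on average (29.7% in both, 8 libraries, exact permutation p = 1), with single libraries from -18.2 to 25.5 points. This comparison was added after the data were seen and rests on the uncertain TRAV9D-2 calls.

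**Figure D3:**
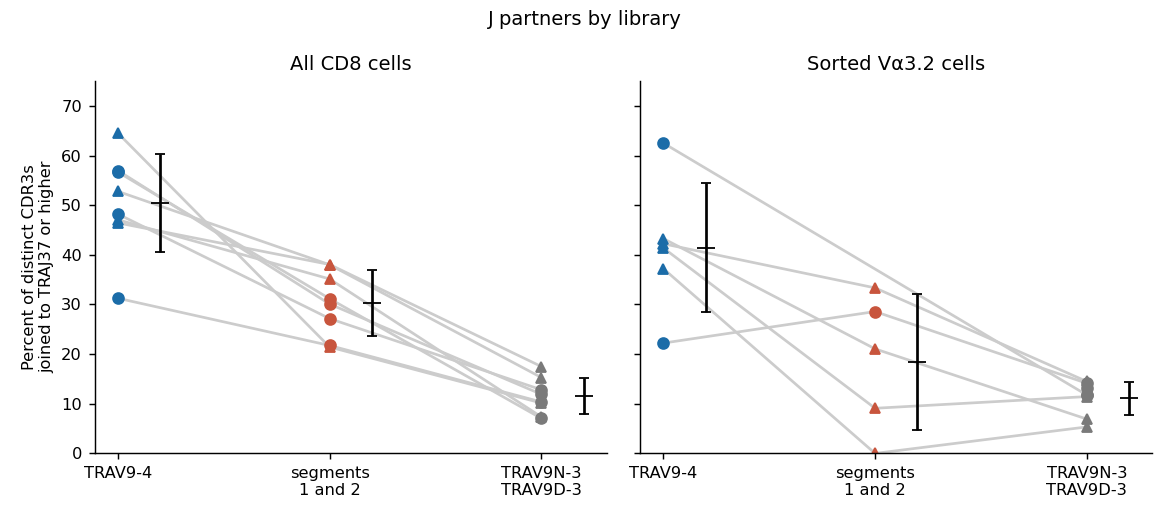
Percent of distinct CDR3 sequences joined to TRAJ37 or a higher number, by library, for TRAV9-4, segments 1 and 2, and TRAV9N-3 with TRAV9D-3. Grey lines join values of 1 library, circles are numbered 1 and triangles 2, and bars give the mean and SD. TRAV9-4 lies above TRAV9N-3 and TRAV9D-3 in all 14 libraries that had at least 5 sequences of both.

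One Jα segment, TRAJ31, led the TRAV9-4 joins. It was picked as the most frequent one, so no test is given. In all CD8 cells 33 of 344 TRAV9-4 sequences (9.59%) used it, followed by TRAJ50 with 24, and in sorted cells 74 of 297 (24.9%) did, followed by TRAJ27 with 24. In the sorted libraries numbered 2 its share was 20% in Themis+/+ LN, 29.9% in Themis-/- LN, 34.9% in Themis+/+ thymus and 21.2% in Themis-/- thymus, all above the 0% to 16.7% of the libraries of all CD8 cells. In those numbered 1 it was in 0 of 8, 2 of 9 and 0 of 1 TRAV9-4 sequences, in Themis+/+ LN, Themis-/- LN and Themis+/+ thymus. TRAJ31 was also the most frequent partner of TRAV9-2, in 17 of 36 sorted sequences and 19 of 254 (7.48%) in all CD8 cells. The sorted count came mostly from 1 library, since 11 of the 18 sorted TRAJ31 sequences of segments 1 and 2 were in the second Themis-/- thymus library, and the other 4 libraries held 1 of 6, 1 of 7, 4 of 11 and 1 of 5. TRAV9N-3 and TRAV9D-3 joined TRAJ31 in 2.33% of sequences in all CD8 and 3.36% in sorted cells, and most often joined TRAJ12 (11.4% in all CD8 cells). TRAV9D-1 most often joined TRAJ15, in 12 of 69 sequences.

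**Figure D4:**
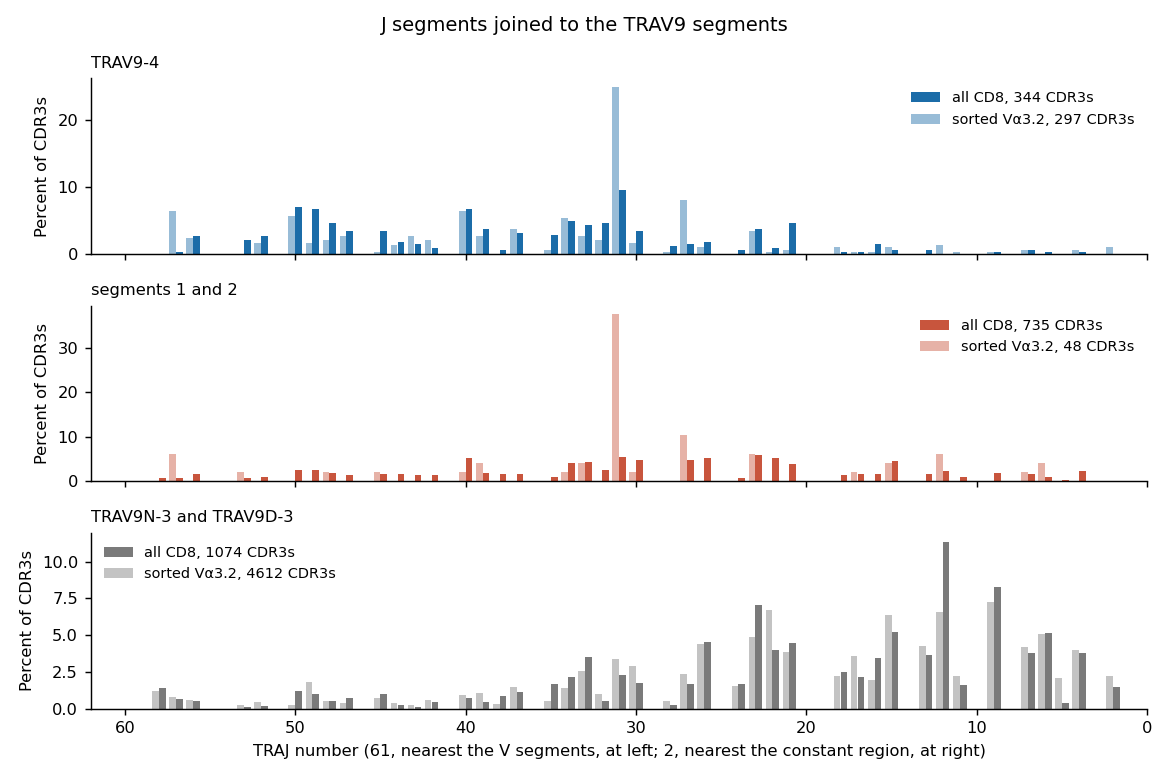
Percent of distinct CDR3 sequences joined to each Jα segment, ordered from the one nearest the Vα segments at left, for TRAV9-4 (top), segments 1 and 2 (middle) and TRAV9N-3 with TRAV9D-3 (bottom), in all CD8 cells (dark) and sorted cells (light). Joins of TRAV9-4 lie mostly at TRAJ23 and above with a peak at TRAJ31 (9.59% and 24.9%), and those of TRAV9N-3 and TRAV9D-3 mostly at low numbers.

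The recurrent CDR3s showed this pairing in single sequences. The 4 TRAV9-4 CDR3 nucleotide sequences found in the most libraries are given here, with the fifth codon in capitals.
TRAV9-4 CDR3 1, TRAJ31: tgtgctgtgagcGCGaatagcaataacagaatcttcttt
TRAV9-4 CDR3 2, TRAJ31: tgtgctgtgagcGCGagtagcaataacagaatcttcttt
TRAV9-4 CDR3 3, TRAJ27: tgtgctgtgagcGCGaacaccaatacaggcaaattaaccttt
TRAV9-4 CDR3 4, TRAJ31: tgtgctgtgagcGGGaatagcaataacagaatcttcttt
Each keeps the 12 germline bases and the G that follows them, and the fifth codon is GCG, for alanine, in 3 of the 4 and GGG, for glycine, in the last.

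The first of these was found in 6 libraries and both genotypes. It made 2.90% of reads in Themis+/+ LN, 3.66% in Themis-/- LN and 2.56% in Themis-/- thymus among sorted libraries numbered 2, and 4, 17 and 1 reads in 3 libraries of all CD8 cells. The second was in 4 sorted libraries, at 0.162% to 1.32%. The fourth was in 3 libraries as TRAV9-4, and was also called TRAV9D-3 in 1 library and TRAV9-1 in another. Such repeats were few. Of 598 distinct TRAV9-4 CDR3s, 31 were in more than 1 library, and 63 were also found with another Vα segment, 55 of them with TRAV9N-3 or TRAV9D-3. The 4 sorted libraries numbered 2 shared 2 to 6 TRAV9-4 CDR3s in a pair. Themis+/+ LN and Themis-/- thymus, for example, shared 6, which were 13.3% and 5.77% of their lists.

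For segments 1 and 2, 15 of 768 distinct CDR3s were in 2 libraries and 0 in 3 or more. The 4 of these with the highest mean share are shown, all called TRAV9-2 in at least 1 library, with the fifth codon in capitals.
Segments 1 and 2 CDR3 1, TRAJ33: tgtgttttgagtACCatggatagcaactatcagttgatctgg
Segments 1 and 2 CDR3 2, TRAJ31: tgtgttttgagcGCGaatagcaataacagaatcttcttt
Segments 1 and 2 CDR3 3, TRAJ23: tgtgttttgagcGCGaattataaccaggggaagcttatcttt
Segments 1 and 2 CDR3 4, TRAJ31: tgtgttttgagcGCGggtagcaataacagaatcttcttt
The second differs from the first TRAV9-4 CDR3 only in the germline Vα bases before the fifth codon, with the same codon and the same TRAJ31 end. It had 3 and 8 reads in 2 sorted Themis-/- libraries numbered 2. The fourth was called TRAV9-2 in 1 library and TRAV9D-2 in another.

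Alanine was the most frequent residue at CDR3 position 5 of TRAV9-4. It stood there in 44.8% of distinct CDR3s in all CD8 and 48.5% in sorted cells, and in 34.1% and 37.5% of those of segments 1 and 2, against 4.0% and 3.71% for TRAV9N-3 and TRAV9D-3. Methionine stood there in 2.91% and 1.68% of TRAV9-4 CDR3s, against 23.6% and 22.1%. Methionine, isoleucine or leucine together took 5.95% of TRAV9-4 and 39.2% of TRAV9N-3 and TRAV9D-3 CDR3s on average over 14 libraries, lower for TRAV9-4 in 14 of 14, and segments 1 and 2 differed from TRAV9-4 by 0.71 points. Base 13 was G in 61% and 71% of TRAV9-4 CDR3s and in 15.2% and 16.6% of those of TRAV9N-3 and TRAV9D-3. Alanine codons open with G, and no codon that opens with G encodes methionine, isoleucine or leucine. The V alignment reads into these bases, so the residues at position 5 are in part what the V call used, and no test is given between segments.

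**Figure D5:**
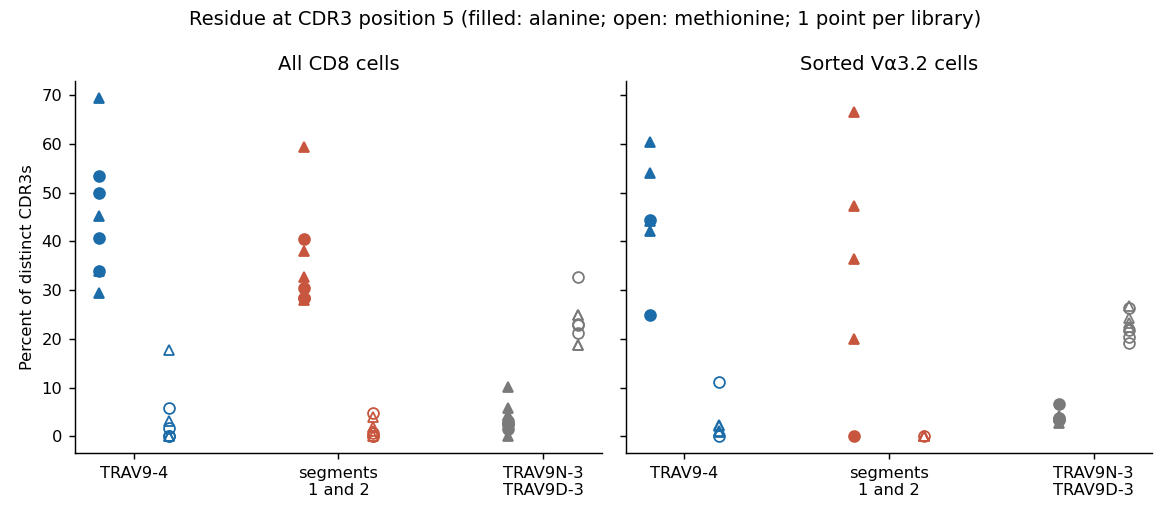
Percent of distinct CDR3 sequences with alanine (filled) or methionine (open) at position 5, for all CD8 cells at left and sorted cells at right. Each point is a library with at least 5 sequences of the set, circles numbered 1 and triangles 2. Alanine is more frequent than methionine in every TRAV9-4 library shown, and the reverse holds for TRAV9N-3 and TRAV9D-3.

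CDR3 length differed little. Within 14 libraries TRAV9-4 CDR3s averaged 41.2 nucleotides and those of TRAV9N-3 and TRAV9D-3 40.3, longer by 0.998 in the mean and longer in 13 of 14 libraries (exact adjusted p = 0.00586). With tied V hits left out the difference was 0.469 and did not pass (exact adjusted p = 0.167). Against segments 1 and 2 the difference of 0.564 nucleotides did not pass (exact adjusted p = 0.236).

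Sorted TRAV9-4 CDR3s carried more net positive charge than those of all CD8 cells. The charge, counted as basic minus acidic residues, averaged 1.04 ± 0.16 (SD, n = 6 libraries) in sorted and 0.63 ± 0.17 (SD, n = 8) in all CD8 libraries. The sorted libraries ranged from 0.875 to 1.30 and the others from 0.395 to 0.882, overlapping by 1 library on each side. Compared within genotype and tissue the difference was 0.43 (exact permutation p = 0.00617, adjusted p = 0.0444). Segments 1 and 2 rose by 0.36 (exact permutation p = 0.00617, adjusted p = 0.0444), from 0.68 over 8 libraries to 1.08 over 5. TRAV9N-3 and TRAV9D-3 had a charge of 0.80 in both fractions, and whether the rise differed from theirs was not tested. The TRAJ31 share was also higher in sorted cells. Over sequences pooled across libraries, TRAV9-4 CDR3s without TRAJ31 had a mean charge of 0.54 in all CD8 and 1.04 in sorted cells. With TRAJ31 kept, the pooled means were 0.57 and 1.07. Of the 297 sorted sequences pooled, 279 came from libraries numbered 2. Whether TRAJ31 use bears on the charge difference was not tested. Without 1 library the differences stayed at 0.324 to 0.495 for TRAV9-4 and 0.286 to 0.429 for segments 1 and 2, but each missed an adjusted p under 0.05 in 13 of the 16 such fits. With the library number as a block they were 0.43 (exact adjusted p = 0.312) and 0.38 (exact adjusted p = 0.375), with fewer arrangements, and did not pass.

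No CDR3 feature of TRAV9-4 or of segments 1 and 2 passed the test between genotypes or between LN and thymus (0 of 20 exact permutation tests passed after adjustment, and 1 was at an unadjusted p under 0.05). That 1 was the methionine, isoleucine or leucine share of TRAV9-4, which was 7.12 points higher in LN (exact permutation p = 0.0340, adjusted p = 0.175). The charge of segments 1 and 2 was 0.15 higher in Themis-/- libraries (exact adjusted p = 0.403). It passed the test at 0.24 with sequences of 1 read left out (exact adjusted p = 0.0333) and at 0.18 with tied hits left out (exact adjusted p = 0.0444).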

How the data were processed

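TCRα repertoires were measured in 16 libraries of 8 groups. Per the labels and the methods, RNA of sorted cells was reverse transcribed with template switching (5' RACE), TCRα cDNA was amplified in 2 PCR rounds without molecular identifiers, and clonotypes were extracted with MiXCR. The submitters' processing notes name CASAVA 1.4 and mm9, and no MiXCR version was stated. For each library the authors deposited a raw read count for each CDR3 nucleotide sequence and its fraction of the library's reads, which equalled count over total and was not used further.

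The segment of a row was the first V hit. Reads were summed per segment. Members, lists and tests were chosen with earlier results of these data known. All 6 segments were entered in the usage comparisons of all CD8 cells and in the sort shares, and 3 of them in the fit of sorted cells. Also named were the nearest TRAV9 segments, the 3 segments most correlated with TRAV9-4, and the 4 CDR3s in the most libraries (ties by mean share). Usage was tested with edgeR 4.0.16 (R 4.3.3, quasi-likelihood, TMM for all CD8 cells and library size for sorted cells, at least 10 reads in at least 2 libraries, 4 groups per fit), with DESeq2 1.42.0 as an alternative. Shares and CDR3 features were tested by exact two-sided permutation over libraries (Python 3.11.15, numpy 2.4.6), features over distinct sequences in libraries with at least 5, and Benjamini-Hochberg adjustment with a threshold of 0.05. The sort shares of the 6 segments, and charge, hydropathy and position 5 between segments, are given without the planned tests, because members were chosen with such shares known and V calls read the germline CDR3 bases. The edgeR fits were checked on simulated counts. Zero shares are bounded by a floor of 3 counts. Germline sequences and GRCm38 positions came from GENCODE M21, as the files hold no coordinates.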

Additional observations from a re-analysis of the deposited data

How the results depend on the processing

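The count of segments called in all CD8 cells depended on the settings. Against 2 for Themis-/- over Themis+/+ in LN, DESeq2 called 7, distinct CDR3 sequences 9 and the 4 libraries alone 1, and leaving out 1 library gave 1 to 9. Against 0 in thymus, distinct sequences gave 3. Against 3 for LN over thymus in Themis-/- mice, distinct sequences gave 5, the 4 libraries alone 0 and tied hits left out 1, and leaving out 1 library gave 0 to 9. The difference of the genotype contrasts gave 1, and 0 to 4 without 1 library. None of the 6 segments was among the calls of the first fit.

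Some log2 fold changes of the 6 segments turned sign as follows, and none of those was called. The settings in which TRAV9D-1 or TRAV9-4 passed are given above. TRAV9-1 in LN was 0.41 with copies merged. TRAV9D-2 in thymus was -0.15 with distinct sequences. TRAV9-4 for LN over thymus in Themis+/+ mice was -0.011 by library size only and -0.029 with no filter on low counts. Without 1 library, the genotype values ranged from -0.023 to 1.39 (LN) and -1.14 to 0.13 (thymus) for TRAV9-4, -1.56 to 0.016 for TRAV9-2 in LN, -0.19 to 0.81 (LN) and -0.47 to 0.71 (thymus) for TRAV9D-2, and -2.75 to 3.96 (LN) and -14.7 to 1.68 (thymus) for TRAV9-4 in sorted cells. TRAV9-4 for LN over thymus in Themis+/+ mice ranged from -0.81 to 0.57. The cause was not tested.

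For sorted against all CD8 cells, TRAV9-4 was 3.69 with a pseudocount of 0.01 percent and ranged from 1.41 to 5.22 without 1 library. With sorted libraries numbered 2 it was 6.57. TRAV9-2 was -6.10 with those numbered 1 and 1.81 with those numbered 2, and -3.40 to -0.88 without 1 library. Both splits were added after the data were seen. The charge differences ranged from 0.324 to 0.495 for TRAV9-4 and 0.286 to 0.429 for segments 1 and 2 without 1 library, and weighted by reads they were 0.35 (exact adjusted p = 0.242) and 0.49 (exact adjusted p = 0.194). The length difference to TRAV9N-3 and TRAV9D-3 was 0.469 with ties left out, 1.10 in all CD8 and 0.856 in sorted libraries alone. The TRAJ37 difference to TRAV9N-3 and TRAV9D-3 was 38.9 points in all CD8 and 30.8 in sorted libraries alone, and that to segments 1 and 2 was 20.1 and 18.9, and 21.1 weighted by reads, none of which passed. With 8 libraries or fewer the sign-flip test has fewer arrangements and a larger smallest p, which does not apply to the test weighted by reads. Of the genotype and tissue tests of CDR3 features 1 passed with sequences of 1 read left out and 1 with ties left out. The position 5 difference to TRAV9N-3 and TRAV9D-3 was -53.0 points with ties left out.

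The labels number the libraries 1 and 2 but do not say that a number marks 1 mouse. Deviations of same-numbered libraries correlated between -0.24 and 0.05 over 114 segments in all CD8 cells and between 0.055 and 0.80 over 8 in sorted cells. There 5 of 6 pairs ranged from 0.449 to 0.80. As not every pair was over 0.1, the numbers were not taken as a pairing. In sorted cells the difference between numbers therefore stayed in the spread behind the SEs. Within numbers, the TRAV9-4 share of sorted Themis-/- over Themis+/+ LN was 1.38 (numbered 1) and 1.70 (numbered 2). In sorted thymus it was 1.34 for those numbered 2, and 0% stood against 6.04% for those numbered 1. With the replicate block, 1 segment was called for LN over thymus in Themis-/- mice, TRAV9-4 was -0.072 for LN over thymus in Themis+/+ mice and -2.27 for the genotypes in sorted thymus, and the charge differences were 0.43 (exact adjusted p = 0.312) and 0.38 (exact adjusted p = 0.375) and did not pass.

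Each group held 2 libraries. Several sorted libraries held under 10 sequences of these segments, and calls of TRAV9D-2 and TRAV9N-2 are uncertain.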
